A study of Saccharomyces cerevisiae with 8 samples.

Results

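U3 and U14, C/D box small nucleolar RNAs (snoRNAs) that act in the processing of precursor ribosomal RNA (pre-rRNA), were followed across a mutant of the SUMO pathway and a drug treatment in budding yeast. U3 is made from 2 genes, snR17a and snR17b, and U14 from 1 gene, snR128. These 3 features were picked by name from the 7126 in the count table, and all 3 passed the filter on low counts. There were 4 groups of 2 libraries each. The first held ubc9-1 cells given rapamycin at 100 nM for 30 minutes, and the second held untreated ubc9-1 cells. The third held wild-type (WT) cells given the same dose for the same time, and the fourth held untreated WT cells. The ubc9-1 strain carries a mutant allele of UBC9, the enzyme that conjugates the small protein SUMO to its targets, and WT carries the intact UBC9. Rapamycin inhibits TORC1, the kinase complex that couples growth to nutrients. All cells were grown in YPD, a rich medium. RNA of 50 to 100 nt was taken from total RNA before sequencing. The labels name neither a growth temperature, nor a strain background, nor separate cultures for the 2 replicates. The p-values below therefore weigh differences only against the spread between these libraries, which could be technical.

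C/D box snoRNAs are bound by a shared set of core proteins and most of them guide the 2′-O-methylation of rRNA. U3 and U14 stand apart because both are essential in yeast for the cleavages that release 18S rRNA. U3 pairs with the 5′ external transcribed spacer (5′ ETS) and with 18S sequence and nucleates the small-subunit processome, the large complex in which the small ribosomal subunit is first assembled. U14 pairs with 18S sequence, is needed for 18S production and also guides a methylation. U14 is cut from a precursor that it shares with snR190.

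The starts of both U3 genes are shown because each holds an intron, which is rare among snoRNA genes, and because the start of snR17a could not be counted. In these, capitals mark the 5′ splice site GTATGT, the branch site GACTAAC and the next AG.
snR17a start and intron: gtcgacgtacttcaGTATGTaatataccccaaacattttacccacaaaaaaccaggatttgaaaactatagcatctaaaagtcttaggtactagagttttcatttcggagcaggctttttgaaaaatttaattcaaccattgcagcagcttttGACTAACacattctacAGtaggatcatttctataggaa
snR17b start and intron: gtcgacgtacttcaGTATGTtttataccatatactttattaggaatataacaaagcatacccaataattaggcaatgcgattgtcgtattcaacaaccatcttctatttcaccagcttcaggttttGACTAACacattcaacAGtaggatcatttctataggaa
The 3′ ends of the U3 genes are shown because they hold most of the second-exon bases by which a read can be told apart. Here capitals mark the bases that differ when the second exons are aligned.
snR17a 3′ end: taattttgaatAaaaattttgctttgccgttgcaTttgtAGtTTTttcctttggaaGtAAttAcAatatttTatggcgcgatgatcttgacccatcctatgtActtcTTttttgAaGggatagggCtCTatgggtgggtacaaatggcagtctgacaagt
snR17b 3′ end: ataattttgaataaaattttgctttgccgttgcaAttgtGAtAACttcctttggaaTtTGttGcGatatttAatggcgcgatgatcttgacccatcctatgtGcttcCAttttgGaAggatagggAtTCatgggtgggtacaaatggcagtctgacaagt
The whole of snR128 is shown because U14 gave the largest fitted difference with rapamycin. Capitals mark the boxes TGATGA (box C) and CTGA (box D).
snR128: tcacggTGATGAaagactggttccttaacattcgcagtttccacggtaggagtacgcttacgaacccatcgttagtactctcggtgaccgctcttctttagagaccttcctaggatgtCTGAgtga
All sequences were read from the RefSeq R64 genome at the positions that the count table gives, which were the same in RefSeq. The first pair came from chrXV:780107-780297 (plus strand) and chrXVI:281354-281517 (minus strand), the 3′ ends from chrXV:780437-780596 and chrXVI:281056-281215, and snR128 from chrX:139566-139691 (minus strand).

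snR17a covers chrXV:780107-780596 (490 bases) and snR17b covers chrXVI:281056-281517 (462 bases). In both, the first exon had 14 bases. The introns had 157 bases in snR17a and 130 in snR17b, and the spliced U3 RNAs 333 and 332 bases. The introns were 60.5% identical when aligned, against 91.5% for the second exons, which differed by 26 mismatches and 1 gap column. A search for GTATGT, then GACTAAC, then AG on the gene strand found the pattern in 2 of the 81 features with snR names, the 2 U3 genes. On either strand it was present in 0.0847% of 24802 genome tiles of the length of snR17a. The pair TGATGA and CTGA, in this order on the gene strand, was present in snR128 and in 36 of 44 other C/D box snoRNAs, and on either strand in 2.68% of 95797 tiles of the length of snR128. The longest run that the U3 genes share had 77 bases, and 36 of the 441 stretches of 50 bases in snR17a were also in snR17b. None of the stretches of 100 bases was shared. Between the spliced RNAs, 46 of the 284 stretches of 50 bases in snR17a were shared. Reads from the shared run counted for both genes, since reads that map to several places were counted at each, so single values of snR17a and snR17b hold some reads of the other. The sum of the 2 genes was tested as well, but it holds reads of the shared run once for each gene, as do the U3 ratios and shares below. None of the 77 stretches of 50 bases in snR128 occurred elsewhere in the genome.

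Overlaps limit what was counted. The open reading frame YOR235W overlaps the first 78 bases of snR17a, so reads from its first exon and the start of its intron were assigned to neither feature, and 412 bases of the gene stayed countable. No feature overlaps snR17b, snR128 or snR190. snR190 (chrX:139761-139950, minus strand) lies 69 bases upstream of snR128. Strand was not used in counting, so antisense reads at these genes would be included. The spliced U3 RNAs, U14 (126 bases) and snR190 (190 bases) are longer than the selected 50 to 100 nt. Their counts may therefore come from fragments or from longer RNA that passed the selection, and a change in the amount of RNA cannot be told apart from a change in its fragmentation.

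The longest runs of letters complementary to pre-rRNA are given because U3 and U14 act by pairing with it. The longest run of snR128 whose reverse complement is in 18S rRNA had 13 bases, CATTCGCAGTTTC, at bases 29 to 41 of the snoRNA, and pairs from base 83 of 18S. Runs at least as long were found in 3 of the 44 other C/D box snoRNAs. In snR17a the longest run complementary to the 700 bases of the 5′ ETS had 12 bases, AGAAACCGAAAT, at bases 271 to 282 of the gene, and 0 of the 44 others had a run of that length. In snR17b the longest such run had 10 bases, TATTCAACAA, and lay in the intron. Whole genes were searched, introns included, and snR17a (490 bases) offers more places for a run than a shorter gene. The counts of other snoRNAs were not corrected for length. A match of letters is a description and no measure of pairing in the cell. Whether these runs are the sites by which U3 and U14 act was not tested.

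The 8 libraries held 14304014 to 21061460 assigned counts. Replicates differed by more than counting noise in every group, where chi-square divided by its degrees of freedom was 56.6 to 298. Levels below are CPM (counts divided by the library size, times 1e+06) after trimmed-mean (TMM) scaling of the library sizes, whose factors ran from 0.695 to 1.37. Differences are log2 fold changes from edgeR's quasi-likelihood test over 6115 features, called at a Benjamini-Hochberg adjusted p under 0.05. UBC9 itself had 221 and 298 counts in rapamycin-treated ubc9-1, 307 and 554 in untreated ubc9-1, 79 and 114 in rapamycin-treated WT, and 2 and 74 in untreated WT. The libraries labelled ubc9-1 thus held more reads of the mutated gene than those labelled WT. All 5 genes that mark the a mating type were tested. MFA2, named after its values were seen, fell with rapamycin in WT (-1.63, adjusted p = 0.0428 in edgeR), against 11.6% of all features called lower. The others gave -0.78 (MFA1), 0.26 (AGA2), 0.30 (STE2) and 0.46 (BAR1). STE2 was lower in ubc9-1 than in WT with rapamycin (-1.46, adjusted p = 0.0285 in edgeR), against 0.769% of all features called lower. There MFA1 gave -0.82, BAR1 -0.64, MFA2 0.64 and AGA2 0.81. Scaling by total counts or by other snoRNAs lost both calls. So did leaving out the second rapamycin-treated WT library or either rapamycin-treated ubc9-1 library, and for MFA2 also the first untreated WT library, for STE2 also the first rapamycin-treated WT library. Of 4 alpha genes, 2 were tested and 0 called by edgeR or DESeq2, with 1 at an unadjusted p under 0.05 for rapamycin in WT in each tool, against 34.5% of all features in edgeR.

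snR17a, the major U3 gene by counts, had nearly level values after TMM scaling in 7 of the 8 libraries. It had 766 and 714 CPM in rapamycin-treated ubc9-1, 746 and 539 in untreated ubc9-1, 671 and 678 in rapamycin-treated WT, and 788 and 716 in untreated WT. The second library of untreated ubc9-1 was the low one, and the other values of all groups lay within a narrow band. The root mean square spread of its log2 CPM over the 8 libraries was 0.16, which ranked 59 from the smallest among 4584 features with a mean count of at least 50, whose median spread was 0.47. Behind these values stood 8850 to 19512 counts per library. The deposited CPM of snR17a were less level, from 537 in the first untreated ubc9-1 library to 926 in the second rapamycin-treated WT library. The rank of the spread was taken on the TMM scale only.

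snR17b, the minor U3 gene, was lower in both ubc9-1 groups than in both WT groups. It had 122 and 167 CPM in rapamycin-treated ubc9-1, 97.3 and 138 in untreated ubc9-1, 245 and 199 in rapamycin-treated WT, and 179 and 189 in untreated WT. On this scale every ubc9-1 library lay below every WT library. In the deposited CPM the strains overlapped, with 176 in the second untreated and 173 in the second rapamycin-treated ubc9-1 library, and 124 in the first untreated WT library. The share of all features that separate the strains in this way is not given here. The strain difference was -0.62 with rapamycin (95% interval -1.35 to 0.12) and -0.65 without (-1.38 to 0.09), and neither passed the test; scaling by other snoRNAs turned the untreated difference to 0.45. The adjusted p of edgeR's quasi-likelihood test was 0.373 with rapamycin and 0.283 without.

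U14 gave the largest fitted difference of the 3 genes, between rapamycin-treated and untreated ubc9-1. snR128 had 771 and 639 CPM in rapamycin-treated ubc9-1, 442 and 239 in untreated ubc9-1, 484 and 820 in rapamycin-treated WT, and 548 and 434 in untreated WT. Within ubc9-1 both rapamycin libraries lay above both untreated ones, while in WT the 2 treatments overlapped. The share of all features whose 2 treatments separate in this way is not given here. In WT the high value came from the second rapamycin library, with 23593 counts of snR128, against 11264 in the first. Group means were 705 ± 93.4 CPM in rapamycin-treated ubc9-1, 340 ± 143 in untreated ubc9-1, 652 ± 237 in rapamycin-treated WT and 491 ± 80.6 in untreated WT (SD, n = 2 each).

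**Figure D1:**
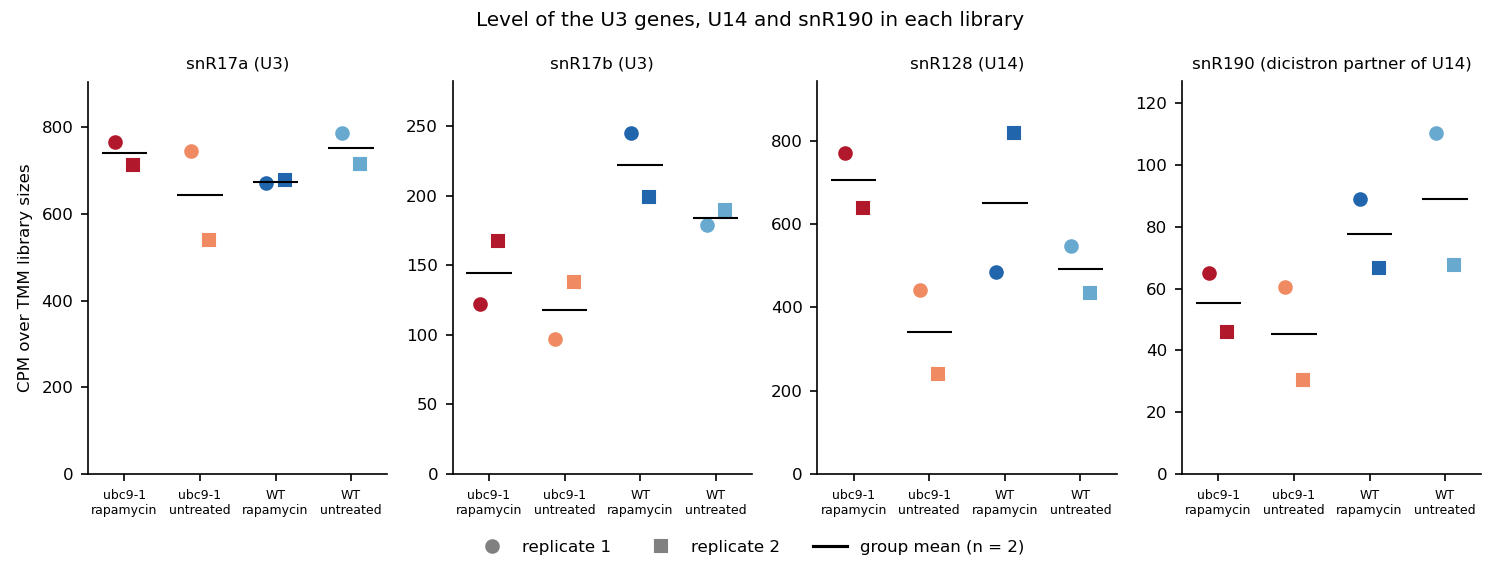
Level of snR17a, snR17b, snR128 and snR190 in each of the 8 libraries, in CPM over TMM-scaled library sizes (vertical axes from 0); circles are replicate 1, squares replicate 2 and lines group means. On this scale, but not in the deposited CPM, the ubc9-1 values of snR17b (97.3 to 167 CPM) all sit below the WT values (179 to 245 CPM). The mean of snR128 is lowest in untreated ubc9-1 (442 and 239 CPM).

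The fitted U14 level in rapamycin-treated ubc9-1 was 2.07 times that in untreated ubc9-1 (log2 1.05, SE 0.40, 95% interval 0.19 to 1.91), but the difference did not pass the test over all features (unadjusted p = 0.0201, adjusted p = 0.337 by edgeR's quasi-likelihood test). In WT the difference was 0.41 (95% interval -0.44 to 1.26, adjusted p = 0.511 by the same edgeR test), and -0.01 without the second rapamycin library. The responses of the 2 strains differed by 0.64 (interval -0.56 to 1.85, adjusted p of the interaction 0.667 in edgeR). For snR17a rapamycin gave 0.20 in ubc9-1 (-0.51 to 0.92) and -0.16 in WT (-0.87 to 0.56), signs that scaling by other snoRNAs turned to -0.34 and 0.06, and for snR17b 0.30 (-0.44 to 1.03) and 0.27 (-0.46 to 1.01). The summed U3 genes gave 0.22 in ubc9-1 (-0.48 to 0.92) and -0.06 in WT (-0.76 to 0.64). These intervals hold changes of up to about 2-fold in either direction for U3, so the libraries do not show that its level was the same. In bulk samples, fewer cells that hold an RNA and less of it per cell cannot be told apart.

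Between strains, U14 differed by 0.11 with rapamycin (ubc9-1 over WT, interval -0.74 to 0.96) and by -0.53 without (-1.38 to 0.32). Scaling by other snoRNAs turned the untreated differences to 0.36 for snR128 and 0.72 for snR17a, and scaling by total counts turned those with rapamycin to -0.27 and -0.21. snR17a differed by 0.13 with rapamycin (-0.58 to 0.85) and -0.23 without (-0.94 to 0.49), and the summed U3 genes by -0.02 (-0.72 to 0.68) and -0.30 (SE 0.33). The interaction was 0.36 for snR17a and 0.03 for snR17b.

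In the main fit none of the 3 genes was called in any of the 5 comparisons. The share of all features called was 1.49% for rapamycin in ubc9-1, 20.4% for rapamycin in WT, 2.01% for ubc9-1 against WT with rapamycin, 4.69% for the same without, and 0.164% for the interaction. At an unadjusted p under 0.05 in edgeR, 1 of the 3 genes (snR128, rapamycin in ubc9-1) was past the threshold, and 0 in each of the other 4 comparisons. The same unadjusted threshold took 9.68%, 34.5%, 17.8%, 22.7% and 14.1% of all features in the same order of comparisons. DESeq2 and limma also called 0 of the 3 in each comparison, with at most 1 of the 3 at an unadjusted p under 0.05. With a replicate block edgeR called snR128 for rapamycin in ubc9-1 (adjusted p = 0.0490), where it called 246 of all features, against 91 without the block. The labels do not say that a replicate number marks a shared batch, so the block was left out of the main fit.

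**Figure D2:**
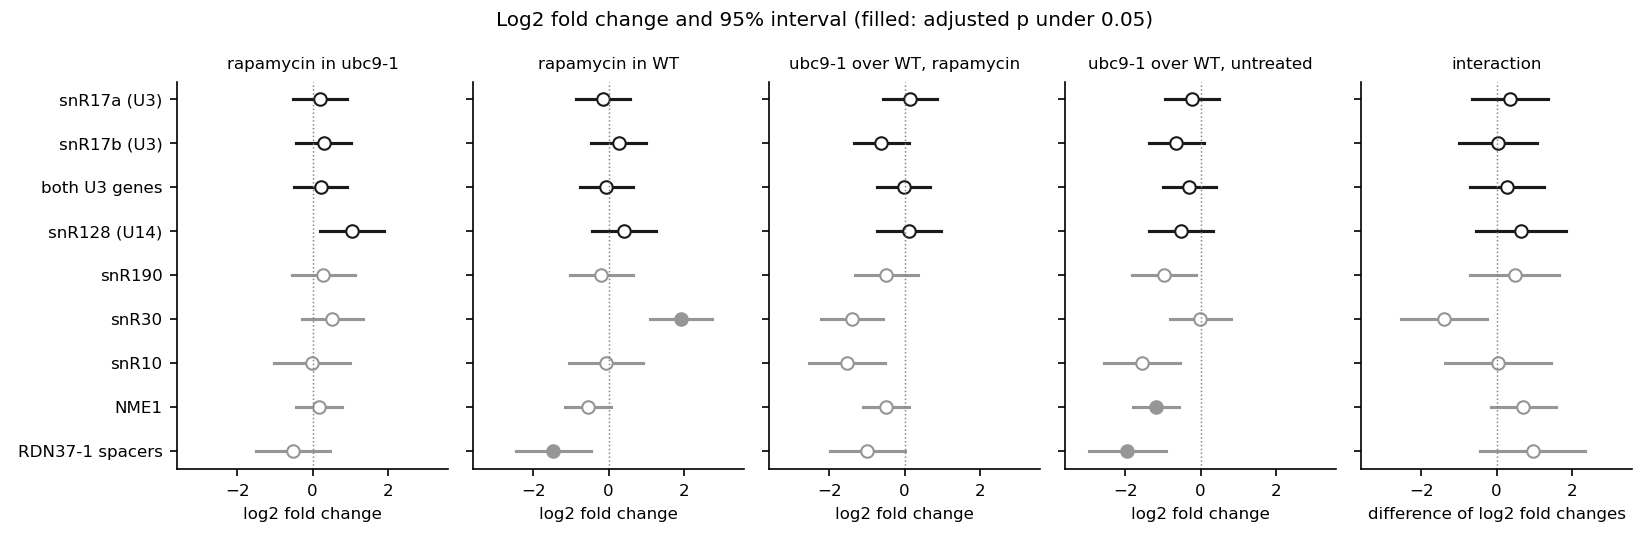
Log2 fold change (horizontal axis, with 95% interval) of the U3 genes, their sum, U14 and 5 other RNAs of pre-rRNA processing in the 5 comparisons; filled circles passed an adjusted p under 0.05 and the last panel is the difference between strains in the response to rapamycin. All U3 and U14 circles are open, and the U14 interval for rapamycin in ubc9-1 (0.19 to 1.91) lies above 0.

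Ratios of counts within a library do not depend on scaling and were compared by an exact two-sided permutation test of 4 against 4 libraries, whose smallest p is 0.0286, with adjustment over 10 tests (5 ratios by 2 factors). There were 0.869 and 0.726 U14 counts per U3 count in rapamycin-treated ubc9-1 and 0.524 and 0.353 in untreated ubc9-1. In rapamycin-treated WT there were 0.529 and 0.935, and in untreated WT 0.568 and 0.480. Rapamycin libraries were higher in ubc9-1 without overlap, and in WT the first rapamycin library lay between the untreated ones. For 2 against 2 libraries the smallest exact permutation p is 0.333. A lack of overlap within a strain or a treatment, here and in the ratios below, is therefore only a description. Over both strains the ratio was 1.58-fold higher with rapamycin (log2 0.66, exact permutation p = 0.0571, adjusted p = 0.357), with 0.88 in ubc9-1 and 0.43 in WT. Between strains, ubc9-1 over WT, the log2 difference was -0.05 (exact permutation p = 0.886).

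The balance of the 2 U3 genes was compared next. There were 6.27 and 4.26 snR17a counts per snR17b count in rapamycin-treated ubc9-1 and 7.67 and 3.91 in untreated ubc9-1, against 2.74 and 3.41 in rapamycin-treated WT and 4.41 and 3.78 in untreated WT. With rapamycin the strains did not overlap, and without it they did. Over both treatments the log2 difference was 0.59 (exact permutation p = 0.114, adjusted p = 0.357), with 0.76 with rapamycin and 0.42 without. For rapamycin over untreated the difference was -0.25 (exact permutation p = 0.457).

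**Figure D3:**
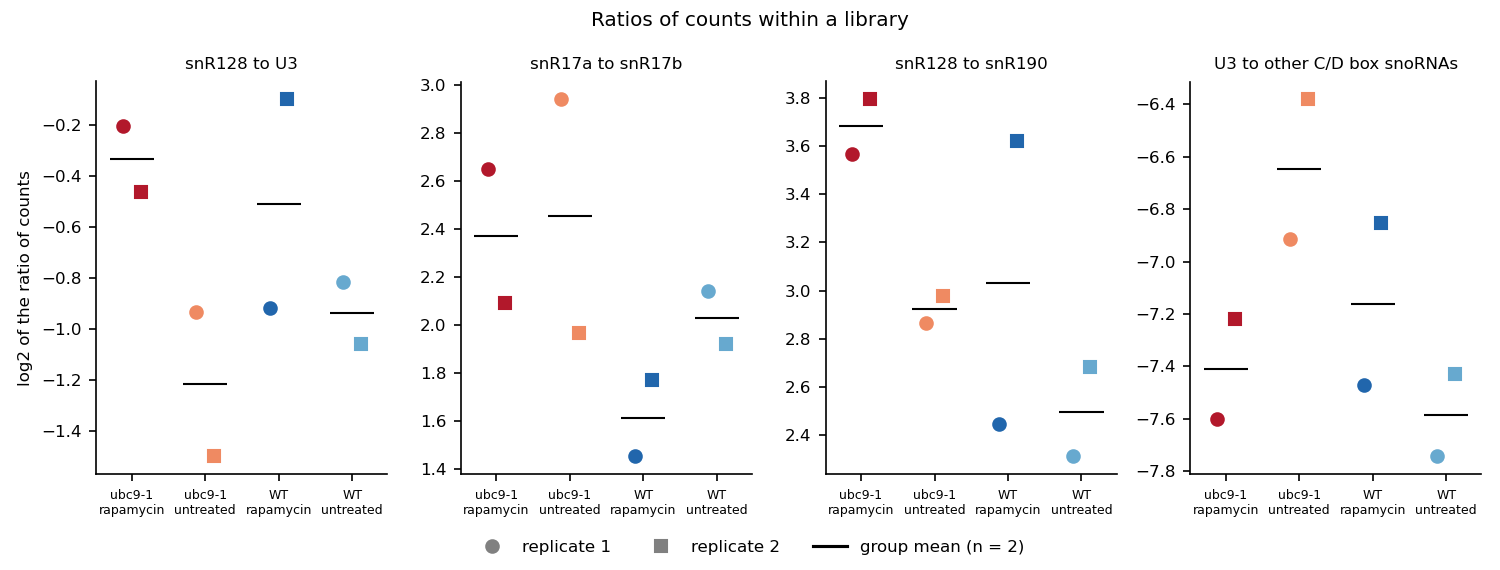
Log2 ratios of counts within each of the 8 libraries (vertical axes, which do not start at 0) for U14 to U3, snR17a to snR17b, U14 to snR190, and U3 to the summed other C/D box snoRNAs; circles are replicate 1, squares replicate 2 and lines group means. In ubc9-1 both rapamycin libraries are above both untreated ones for U14 to U3, and the mean of U3 to other C/D box snoRNAs is highest in untreated ubc9-1.

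snR190, which is cut from the U14 precursor, was counted less than U14 in every library. It had 64.9 and 46.0 CPM in rapamycin-treated ubc9-1, 60.6 and 30.3 in untreated ubc9-1, 88.9 and 66.6 in rapamycin-treated WT, and 110 and 67.6 in untreated WT. Without drug it gave lower values in both ubc9-1 libraries than in both WT ones (-0.97, unadjusted p = 0.0275, adjusted p = 0.159 by edgeR's quasi-likelihood test), which scaling by other snoRNAs, with snR190 itself among them, brought to -0.079. With rapamycin the difference was -0.49. Rapamycin gave 0.29 in ubc9-1 and -0.19 in WT, signs that scaling by other snoRNAs turned to -0.17 and 0.03. There were 11.9 and 13.9 U14 counts per snR190 count in rapamycin-treated ubc9-1 and 7.29 and 7.88 in untreated ubc9-1, against 5.45 and 12.3 in rapamycin-treated WT and 4.96 and 6.42 in untreated WT. In ubc9-1 the 2 treatments did not overlap, and over both strains the log2 difference for rapamycin was 0.65 (exact permutation p = 0.114). For ubc9-1 over WT it was 0.54 (exact permutation p = 0.2).

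The pre-rRNA could be counted only through its spacers, in RNA selected to be short. Reads there may come from pre-rRNA or from pieces of spacer already cut from it, and the counts cannot tell these apart. Differences in these counts are therefore not a measure of the pre-rRNA level. The mature 18S gene was at 0 in all libraries because it overlaps the precursor feature RDN37-1, and reads in overlaps were not assigned. The 478 bases of RDN37-1 (chrXII:451786-457732) that no other feature overlaps lie in the internal transcribed spacers, with 232 bases between 25S and 5.8S and 246 between 5.8S and 18S. A second copy, RDN37-2, takes the same reads. This feature was added after its values were seen. It had 1545 and 1106 CPM in rapamycin-treated ubc9-1, 2501 and 1276 in untreated ubc9-1, 3534 and 1725 in rapamycin-treated WT, and 9451 and 5125 in untreated WT. Untreated WT lay above all other libraries.

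RDN37-1 spacer counts fell with rapamycin in WT by 1.47 on the log2 scale (SE 0.466, adjusted p = 0.0392 by edgeR's quasi-likelihood test). Between untreated strains they were lower in ubc9-1 (-1.95, SE 0.473, adjusted p = 0.0351 by the same edgeR test). Both held their sign under all 17 alternatives and passed the test in 12 of them. Scaling by other snoRNAs brought the strain difference to -1.04, still called, and scaling by total counts brought the rapamycin difference in WT to -0.95 and lost its call. The call for rapamycin in WT was also lost without the first untreated WT library (-0.99), the second rapamycin-treated WT library (-1.04) or either rapamycin-treated ubc9-1 library (-1.46 each). The strain call was lost with only the libraries compared (-1.91) and without the first untreated WT library (-1.44), the second untreated ubc9-1 library (-1.54) or either rapamycin-treated ubc9-1 library (-1.91 each). The differences for rapamycin in ubc9-1 (-0.51) and for ubc9-1 over WT with rapamycin (-0.99) did not pass, nor did the interaction (0.96, adjusted p = 0.546 in edgeR).

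Set against these spacers, U3 and U14 were highest in rapamycin-treated ubc9-1. There were 0.575 and 0.797 U3 counts per RDN37-1 count in rapamycin-treated ubc9-1, 0.337 and 0.531 in untreated ubc9-1, 0.259 and 0.508 in rapamycin-treated WT, and 0.102 and 0.177 in untreated WT. For U14 the same ratio was 0.499 and 0.578, 0.177 and 0.187, 0.137 and 0.475, and 0.058 and 0.0847, in the same order of groups. Untreated WT had the lowest ratio for both snoRNAs, and the other groups overlapped in part. These ratios were chosen after the spacer counts were seen and were not tested. Since the spacer reads may be pre-rRNA or cut pieces, the ratios do not give U3 or U14 per pre-rRNA.

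Among 3 other RNAs of pre-rRNA cleavage, snR30 was called higher for rapamycin in WT, against 8.77% of all features, and snR10 and NME1 were not called there. All 3 are longer than the selected RNA, with 606 bases for snR30, 340 for NME1 and 245 for snR10. For them too, a change in amount cannot be told apart from a change in fragmentation. snR30, an H/ACA box snoRNA that is also required for 18S production, had 3180 and 4252 CPM in rapamycin-treated ubc9-1, 1867 and 3306 in untreated ubc9-1, 10472 and 9267 in rapamycin-treated WT, and 2140 and 3054 in untreated WT. It rose with rapamycin in WT by 1.93 (95% interval 1.09 to 2.76, adjusted p = 0.00350 by edgeR's quasi-likelihood test), and this call stood under all 17 alternatives. Its interval lies above that of the summed U3 genes in the same comparison (-0.76 to 0.64). The difference between the 2 RNAs was not tested. In ubc9-1 the response of snR30 was 0.52 (adjusted p = 0.775 in edgeR), and the strains' responses differed by -1.40 (adjusted p = 0.279 in edgeR). With rapamycin it was -1.41 in ubc9-1 over WT (adjusted p = 0.0723 in edgeR).

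snR10, an H/ACA box snoRNA that takes part in early pre-rRNA cleavage, was -1.52 in ubc9-1 over WT with rapamycin and -1.56 without, with adjusted p-values of 0.109 and 0.0722 in edgeR. Only 29 of its 245 bases are free of the overlapping gene YGL088W. NME1, the RNA of RNase MRP, which cuts in the first internal spacer, was lower in ubc9-1 than in WT without drug (-1.19, adjusted p = 0.0351 by edgeR's quasi-likelihood test), against 2.40% of all features called lower. With rapamycin NME1 gave -0.48. The NME1 call passed in 5 of 17 alternatives and was lost when any 1 of the 8 libraries was left out, with values of -1.25 to -1.12. Scaling by other snoRNAs brought the NME1 difference to -0.15.

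The proteins that act with U3 and U14 were read through fragments of their mRNAs, which may move apart from full-length mRNA. Of 41 genes for proteins of the U3 snoRNP and small-subunit processome, 40 fell with rapamycin in WT, with a median log2 fold change of -2.48, against 11.6% of all features called lower and a median of 0.04. ENP1, which binds pre-40S particles, fell by 3.73 (adjusted p = 4.73e-05) and UTP8, of the UTP-A subcomplex that starts processome assembly, fell by 3.72 (adjusted p = 0.000236), both by edgeR's quasi-likelihood test. In ubc9-1 10 of the 41 fell, with a median of -1.22, against 0.654% of all features called lower and a median of -0.01. UTP9, also of UTP-A, fell by 2.77 (adjusted p = 0.00236) and PWP2, of the UTP-B subcomplex, by 1.80 (adjusted p = 0.0308) by the same edgeR test. The processome count in ubc9-1 was 1 under scaling by total counts, 2 and 0 without the first and the second rapamycin-treated ubc9-1 library, and 5 without either untreated ubc9-1 library. While these 41 mRNAs gave medians of -2.48 and -1.22, the summed U3 genes gave -0.06 in WT and 0.22 in ubc9-1.

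Between strains, 2 of the 41 were higher in ubc9-1 with rapamycin (median 0.59, against 1.24% of all features called higher), ENP2 by 1.90 (adjusted p = 0.0198) and SAS10 by 1.57 (adjusted p = 0.0400) in edgeR. Without rapamycin UTP10 was lower (-1.21, adjusted p = 0.0325 in edgeR), and the median was -0.76, which scaling by other snoRNAs turned to 0.27, against 2.40% of all features called lower and 2.29% higher. The 2 higher ones became 0 without any 1 of the 4 rapamycin libraries and 0 with total counts. The UTP10 call passed in 8 of 17 alternatives. For the interaction edgeR called none of the 41. At an unadjusted p under 0.05 in edgeR were 26 of them, against 14.1% of all features, and their median was 1.30, against -0.05. DESeq2 called 7 of the 41, and 123 of all features.

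All 4 mRNAs of the C/D core proteins, NOP1 (the methyltransferase, fibrillarin in humans), NOP56, NOP58 and SNU13, fell with rapamycin in WT, with a median of -2.33, against 11.6% of all features called lower. SNU13 fell by 2.64 (adjusted p = 0.000306) and NOP58 fell by 2.50 (adjusted p = 0.000602) in edgeR's quasi-likelihood test. In ubc9-1 NOP1 fell by 1.49 (adjusted p = 0.0268 in edgeR), against 0.654% of all features called lower. The call was lost without either rapamycin-treated ubc9-1 library (-1.39 and -1.60) or the second untreated one (-1.19), under scaling by total counts (-1.59) and with limma (-1.36). The 3 helicases HAS1, ROK1 and HCA4 (also called DBP4), which act on U14 or snR30 in pre-ribosomes, all fell with rapamycin in WT, with a median of -3.63, against the same 11.6%. HCA4, which is needed to release U14, fell by 3.63 (adjusted p = 4.26e-05) and ROK1 fell by 3.72 (adjusted p = 0.000111) in edgeR. HAS1 fell by 1.90 in ubc9-1 (adjusted p = 0.0197 in edgeR), against 0.654% of all features called lower. The HAS1 call was lost under scaling by total counts, without either rapamycin-treated ubc9-1 library (-1.62 and -2.25), without the second untreated one (-1.45) and with limma (-1.62).

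Of the genes for the assembly, capping and trimming of C/D box snoRNAs, 17 were tested out of 18. Of these, 7 fell with rapamycin in WT (median -0.70), against 11.6% of all features, among them BCD1, an assembly factor of C/D box snoRNPs, by 2.26 (adjusted p = 0.00501), and LRP1, a cofactor of the nuclear exosome, by 1.87 (adjusted p = 0.0227), in edgeR's quasi-likelihood test. The count was 1 under scaling by total counts and 1 without the second rapamycin-treated WT library, and 3 without the first untreated WT library. In the other 4 comparisons edgeR and DESeq2 called none of the 17, with 2 to 4 and 1 to 2 at an unadjusted p under 0.05. The share of all features at that unadjusted p in edgeR was 9.68% to 22.7% in these comparisons.

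**Figure D4:**
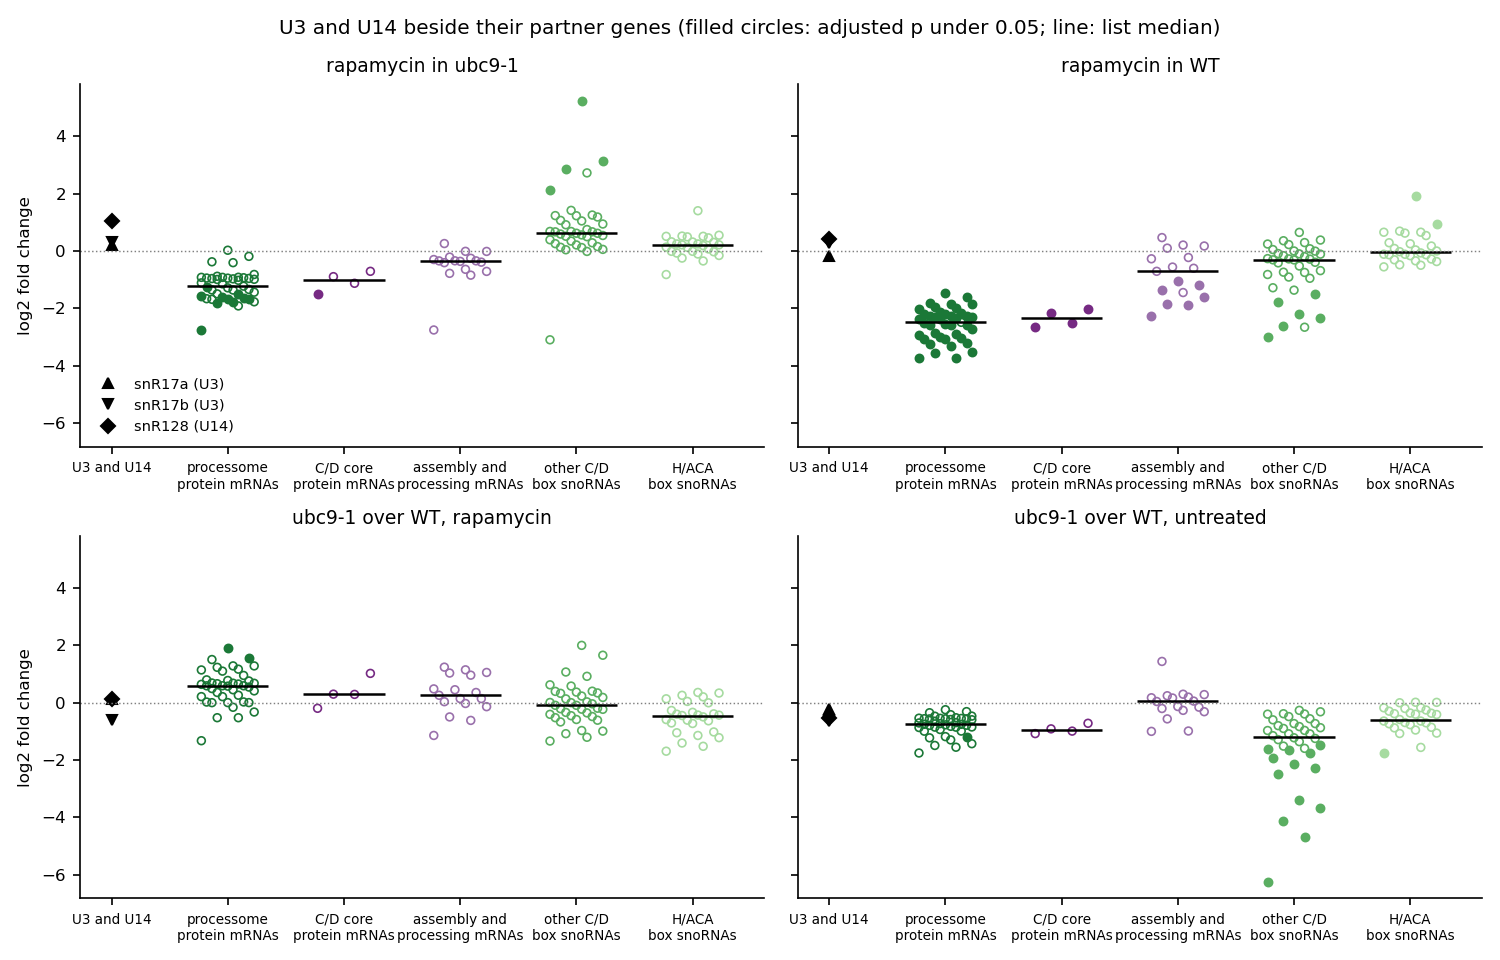
Log2 fold changes (vertical axes) of the U3 genes and U14 beside 5 lists of partner genes in the 4 pairwise comparisons; filled circles passed an adjusted p under 0.05 and lines are list medians. In WT with rapamycin the processome mRNAs lie below 0 with a median of -2.48, while the U3 genes and U14 lie between -0.16 and 0.41.

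The other C/D box snoRNAs share the core proteins of U3 and U14. Of the 44 others, 38 passed the filter, and 13 of these were lower in ubc9-1 than in WT without drug, with a median of -1.19 against 2.40% and 0.02 for all features. The log2 fold change of snR17a (-0.23) was above those of all 38, that of snR128 (-0.53) above 32 and that of snR17b (-0.65) above 30. snR58, a methylation guide, was lower by -4.69 (adjusted p = 0.000157 in edgeR), with 294 and 858 counts in untreated ubc9-1 and 9813 and 10695 in untreated WT. snR60, a methylation guide that overlaps another feature, had 0 and 4 counts in untreated ubc9-1 and 104 and 131 in untreated WT. The 13 became 7 without the first untreated WT library, 9 without either rapamycin-treated ubc9-1 library, 6 without the second untreated ubc9-1 library and 19 without the first, and 8 under snoRNA-based scaling. That scaling rests on these same 38 and on the H/ACA box snoRNAs, so it takes out any shift that they share.

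With rapamycin in ubc9-1, 4 of the 38 rose and 0 fell, with a median of 0.65, against 0.834% of all features called higher. snR58 rose by 3.13 (adjusted p = 0.00130 in edgeR). The value of snR128 (1.05) lay above 27 of the 38, and those of snR17a (0.20) and snR17b (0.30) above 7 and 10. In WT 6 of the 38 fell, against 11.6% of all features called lower, and 0 rose, against 8.77% called higher. Their median was -0.31, which turned to 0.17 under scaling by total counts. Here snR128 (0.41) lay above 37, snR17b (0.27) above 34 and snR17a (-0.16) above 25 of the 38. Among those that fell, snR55, a methylation guide, had 313 and 325 counts in rapamycin-treated WT and 906 and 1259 in untreated WT (-2.60, adjusted p = 0.0119 in edgeR). The interaction was called higher for 4 of the 38, against 0.131% of all features, among them snR60 and snR55. With rapamycin edgeR called 0 of the 38 between strains, where 0.769% of all features were called lower, and the median of the 38 was -0.10. At an unadjusted p under 0.05 in edgeR were 8 of the 38, against 17.8% of all features. DESeq2 called 2 of the 38, and 334 of all features.

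The sum of the other C/D box snoRNAs, of which snR67 held 45.6% and snR66 15.9%, took 14.7% ± 1.65 of all counts in rapamycin-treated ubc9-1, 7.25% ± 0.0888 in untreated ubc9-1, 15.95% ± 2.96 in rapamycin-treated WT and 15.7% ± 1.84 in untreated WT (SD, n = 2 each). U3 took 0.56% ± 0.0951 of snoRNA counts in rapamycin-treated ubc9-1, 0.929% ± 0.21 in untreated ubc9-1, 0.632% ± 0.168 in rapamycin-treated WT and 0.499% ± 0.071 in untreated WT. Without drug, U3 was 1.92-fold higher in ubc9-1 than in WT relative to that sum, and the libraries did not overlap. A comparison of 2 against 2 libraries cannot reach an exact permutation p below 0.333. Over both treatments the log2 difference was 0.35 (exact permutation p = 0.314). U14 took 0.442% ± 0.0192 of snoRNA counts in rapamycin-treated ubc9-1, 0.395% ± 0.0198 in untreated ubc9-1, 0.487% ± 0.305 in rapamycin-treated WT and 0.259% ± 0.00619 in untreated WT. Relative to the same sum U14 was higher with rapamycin by 0.12 in ubc9-1 and 0.85 in WT, without overlap in either strain, and by 0.49 over both (exact permutation p = 0.143, adjusted p = 0.357). The WT value rests on the second rapamycin library, with 0.00808 U14 counts per count of the sum, against 0.00298 in the first and 0.00265 and 0.00278 in untreated WT, and without that library the difference over both strains was 0.24.

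Of 27 H/ACA box snoRNAs tested out of 29, 2 rose with rapamycin in WT, against 8.77% of all features, a share no smaller than that of the list. These were snR30 and snR83 (0.95, adjusted p = 0.0296 in edgeR, called in 9 of 17 alternatives), and snR80 was lower in ubc9-1 than in WT without drug (-1.76, adjusted p = 0.0409 in edgeR, called in 8 of 17), as 1 of 27 against 2.40% of all features. Of 5 spliceosomal snRNAs tested out of 6, a list included because the U3 genes hold introns, snR14 (U4) was lower in ubc9-1 than in WT with rapamycin (-1.57, adjusted p = 0.0264) and without (-1.76, adjusted p = 0.0143) in edgeR, against 0.769% and 2.40% of all features called lower. Both snR14 calls were lost under scaling by total counts or by other snoRNAs, the first also without any 1 of the 4 rapamycin libraries and the second without the second untreated ubc9-1 library. The intron of U3 could not be read apart from its exons.

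Per length, U14 was the most counted of the 3 genes. Over its 126 bases snR128 averaged 4344 CPM per kb across the 8 libraries (range 1898 to 6505). snR17a averaged 2201 CPM per kb of its second exon (1690 to 2469) and snR17b 525 (306 to 771). The ranges of snR128 and snR17a overlapped, and snR17b lay below both in all libraries. The median of the 38 other C/D box snoRNAs was 2667 CPM per kb, with 5826 for the 23 of at most 100 bases and 715 for the 15 that were longer. Length and the selection of 50 to 100 nt go together here, and their part in these levels was not tested.

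The features whose pattern over the 8 libraries was nearest to that of U3 were mRNAs. By the root mean square difference of centred log2 CPM among 4584 features they were ERJ5 (0.085), KIP3 (0.096), TOF1 (0.124), MLP1 (0.127) and DOP1 (0.128), against a spread of U3 itself of 0.144 and a median distance of all features of 0.502. U14 was at 0.438 from U3. Nearest to U14 were snR57 (0.237), a C/D box methylation guide, and the mRNAs of URA8 (0.241), FRE8 (0.244), RME1 (0.264) and SCD6 (0.268), against a spread of U14 itself of 0.529. Its dicistron partner snR190 was at 0.528, close to the spread of U14 alone. KIP3 and SCD6 overlap another feature, and their counts hold only the reads outside it.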

How the data were processed

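The authors deposited whole-number counts per feature, not normalized, and CPM; CPM recomputed from those counts matched the deposited values to within 4.37e-10. Genome build R64, featureCounts 1.4.6-p3 and TopHat2 2.0.13 are listed in the submitters' processing notes. Per the file headers, paired reads were counted per gene, without strand, with every alignment of a multi-mapping read and without reads in overlapping genes. Columns were matched to samples by the strain, drug and replicate in their header names. Here counts were fitted in edgeR 4.0.16 (R 4.3.3) with the 4 groups as coefficients over all 8 libraries, after TMM scaling and filterByExpr (minimum count 10); 6115 features were tested. Intervals and standard errors are approximate, from the F statistic. The fit recovered known changes on simulated data. Alternatives were DESeq2 1.42.0, limma 3.58.1 on log2(deposited CPM + 1), other scalings, no filter, fewer libraries and a replicate block. Ratios had 0.5 added to each count. Intervals cover the spread between libraries. U3 and U14, the lists and the rule for names were chosen with earlier results of these data known; RDN37-1 was added after its values were seen. Named are the 3 genes, snR190, snR30, snR10, NME1 and UBC9, the 2 highest and 2 lowest called members of each list (mean count 50 or more), and the 5 nearest patterns to U3 and to U14. The lists hold processome, C/D core, helicase and assembly proteins, C/D and H/ACA box snoRNAs, spliceosomal snRNAs and mating-type genes.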

Additional observations from a re-analysis of the deposited data

How the results depend on the processing

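No choice other than the replicate block brought U3 or U14 past the threshold: among recomputed differences, 218 kept their sign and side, 28 turned sign without being called, and 1 became a call. With the replicate block snR128 rose with rapamycin in ubc9-1 by 1.07 (adjusted p = 0.0490 in edgeR), and snR190 was lower in untreated ubc9-1 than in untreated WT (adjusted p = 0.00638 in edgeR). Deviations of same-numbered libraries correlated at 0.104 to 0.204, but there are only 2 numbers and the labels do not say that a number marks a shared batch, so the block was not used in the main fit.

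Scaling by total counts moved the median of all features to 0.52 for rapamycin in WT, -0.34 for ubc9-1 against WT with rapamycin, 0.18 without and -0.56 for the interaction. Scaling by other snoRNAs moved it to -0.62 for rapamycin in ubc9-1, 0.25 in WT, 0.20 and 1.03 between strains with and without rapamycin and -0.89 for the interaction; the cause of the sign changes below beyond these shifts was not tested. With total counts, snR17a turned to 0.33 for rapamycin in WT, -0.21 between strains with rapamycin and -0.10 for the interaction, snR17b to -0.51 for the interaction, snR128 to -0.27 between strains with rapamycin and snR190 to 0.34 for rapamycin in WT. With snoRNA scaling, rapamycin in ubc9-1 gave -0.34 for snR17a, -0.39 for snR17b, -0.17 for snR190 and -0.22 for snR30, and in WT 0.061 for snR17a and 0.027 for snR190. The same scaling gave 0.72, 0.45 and 0.36 for snR17a, snR17b and snR128 between untreated strains, and -0.40, -0.85 and -0.10 for their interactions. With limma, snR17a gave 0.35 for rapamycin in WT, -0.20 between strains with rapamycin and -0.10 for the interaction, snR17b -0.44 for the interaction, snR128 -0.18 between strains with rapamycin and snR190 0.33 for rapamycin in WT. Summing the U3 genes gave -0.062 for rapamycin in WT and -0.020 between strains with rapamycin.

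Without 1 library at a time, values ran from -0.014 to 0.46 for snR17a with rapamycin in ubc9-1, -0.23 to 0.30 for the interaction of snR17b, -0.015 to 0.75 for snR128 with rapamycin in WT and -0.22 to 0.54 between strains with rapamycin. They ran from -0.13 to 0.88 and -0.50 to 0.17 for snR190 with rapamycin in ubc9-1 and WT, and from -0.92 to 0.060 for RDN37-1 with rapamycin in ubc9-1. The log2 ratio of U14 to U3 between strains ran from -0.24 to 0.19, and that of U3 to other C/D box snoRNAs for rapamycin from -0.38 to 0.076.

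Counts of all features called were less stable than these signs. Rapamycin in ubc9-1 called 91, against 246 with the replicate block, 42 with total counts, 151 with snoRNA scaling, 146 with DESeq2, 41 with limma and 22 to 111 without 1 library. For ubc9-1 against WT without drug 287 stood against 1012, 124, 1434, 592, 148 and 91 to 226, and with rapamycin 123 against 654, 27, 56, 334, 43 and 2 to 226, in the same order. For rapamycin in WT 1248 stood against 1887, 848 and 676 with the first 3 and 566 to 1383 without 1 library, and the interaction called 10 against 395, 5, 18, 123, 5 and 4 to 31. With no filter on low counts there were 257 calls between strains with rapamycin, 465 without and 52 for the interaction, and with only the libraries compared 278 and 86 between strains. Rapamycin in WT gave 712 lower and 536 higher calls, and 265 lower and 583 higher with total counts. In the main fit, with 2 libraries a group, the 2.07-fold difference of U14 with rapamycin in ubc9-1 went uncalled, while the fit with the replicate block called it. Its value was 1.57 on the log2 scale without the first untreated ubc9-1 library.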
